A study of Danio rerio with 6 samples.

Results

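The long arm of zebrafish chromosome 4 was examined in RNA sequencing of hearts from wild-type embryos and from embryos injected with a morpholino against tnnt2a. Its features were selected on their coordinates in the authors' deposited table (chromosome 4 with a start of 30000000 or more, build GRCz10) and on a larger group value below 1000 FPKM, that is sequenced fragments scaled for transcript length and for how many fragments each library mapped. This gave 320 of the 16383 listed features, or 1.95%. The 435 chromosome 4 features that start before this limit and the 15628 features of the other chromosomes (the mitochondrial genome included) served for comparison. The limit of 1000 FPKM removed 0 features, since the most abundant one stood at 256 FPKM. The first feature inside the position limit starts at 30004926 and the last one outside it starts at 29893648. Because the rule uses the same group values that are compared, levels, ratios and counts are given as description, without a test. The start limit is a coordinate and not a mapped centromere.

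The long arm of this chromosome is known as an unusual stretch of the zebrafish genome. It is rich in repeats and heterochromatin, replicates late in the cell cycle, and carries large arrays of related zinc-finger genes and immune-receptor genes of the NLR family. Many copies of small nuclear RNA genes, whose products build the spliceosome, also lie there. In natural strains the arm has been linked to sex determination. Sequences that occur in many near-identical copies are difficult for short reads, because a read may fit several copies equally well. The features carry assembly identifiers and no gene names, so none of them can be assigned here to one of these families.

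The 6 libraries comprised 3 of wild-type hearts and 3 of tnnt2a morphant hearts, each a pool of about 100 hearts dissected at 54 hours post fertilisation. tnnt2a encodes cardiac troponin T of the thin filament, and its mutant is known as silent heart. Morphant embryos had been given 1 ng of the morpholino when they were a single cell. The labels name no control morpholino for the wild type and no line, strain or transgene, so injection and loss of tnnt2a cannot be told apart. The table has 1 merged value per group, and its columns called control and sih were read as wild type and morphant. No value per library exists there, so no standard deviation is given, and depth is unknown. The replicate spread enters only through the q-values that the authors' deposited table gives. The level of tnnt2a and the markers of heart tissue are not analysed here. In bulk RNA, fewer cells of a type and less RNA per cell cannot be told apart.

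The listed features of the long arm had low values in these hearts. How reads that fit several copies were handled is not known, and whether this lowered the values was not tested. The median feature stood at 0.803 FPKM in the wild type against 0.748 FPKM in morphants, against 5.58 and 5.67 FPKM on the rest of chromosome 4 and 6.38 and 6.70 FPKM on the other chromosomes. Among the 24 other numbered chromosomes the lowest medians were 4.74 FPKM in the wild type against 5.32 FPKM in morphants, both on chromosome 15. Taking the larger of both group values, the long arm had a median of 1.12 FPKM with quartiles of 0.643 and 2.66 FPKM. The other chromosomes had a median of 8.03 FPKM with quartiles of 2.499 and 21.9 FPKM. All 320 features together made up 0.155% of the summed wild-type values and 0.135% of the summed morphant values, although they were 1.95% of the features.

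The shortfall lay in the middle and upper ranges of abundance. Of the long-arm features, 147 (45.9%) stayed below 1 FPKM in both groups, compared with 10.6% on the rest of chromosome 4 and 11.04% on other chromosomes. At the other end, 15 features (4.69%) reached 20 FPKM, compared with 24.4% and 27.1%. A single long-arm feature exceeded 100 FPKM. The authors' deposited table holds no feature whose larger value is below 0.362 FPKM, and on the long arm the smallest is 0.369 FPKM. For a feature near that floor, the ratio between groups sets a value close to the floor against a lower one.

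**Figure D1:**
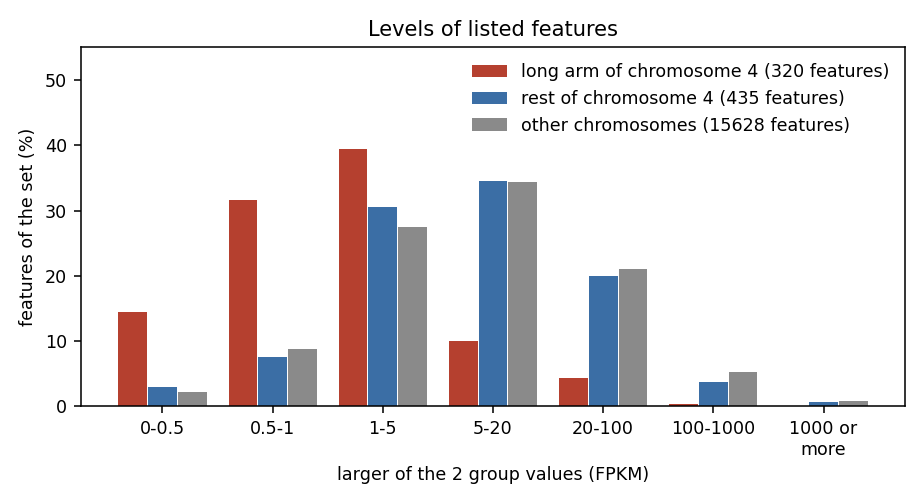
Share of features (vertical axis, in percent of each set) in bands of the larger group value (horizontal axis, FPKM), for the 320 long-arm features, the 435 others of chromosome 4 and the 15628 of other chromosomes. Long-arm features fill the bands below 5 FPKM, with 31.6% between 0.5 and 1 FPKM against 8.80% on other chromosomes.

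Few of the features numbered on the arm appear in the list at all. The numbers in the assembly identifiers run in order of position, in 2 series on each numbered chromosome. From the first to the last listed long-arm feature these series span 2180 numbers, of which 320 (14.7%) are listed. On the rest of chromosome 4, 435 of 775 numbers (56.1%) are listed, and on the 24 other chromosomes the share ran from 50.4% to 63.5%. The arm thus held more numbers per megabase than the rest of the chromosome (46.8 against 25.9) and fewer listed features per megabase (6.86 against 14.6). A number may be missing from the list because its feature had a large p-value or was not tested, and these reasons cannot be told apart. Of the 19969 features over which the q-values were adjusted, 3586 with a p-value above 0.767 are not listed.

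The arm was not uniform along its length. In windows of 5 Mb, the median of the larger group value fell between 0.641 and 1.46 FPKM in each of the 8 windows from 30 to 70 Mb. It was 2.72 FPKM between 70 and 75 Mb and 2.17 FPKM in the last window. The last window before the limit, from 25 to 30 Mb, had a median of 4.42 FPKM, and the 5 windows before it had medians between 6.65 and 10.2 FPKM. Over the whole genome 272 windows held at least 20 features, and the 9 lowest medians all belonged to the 10 long-arm windows. The lowest window elsewhere was the first 5 Mb of chromosome 3, at 2.22 FPKM.

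The distal end resembled the rest of the chromosome in how many identifiers were listed, but not in level. Its median larger group value was 2.72 FPKM, against 7.09 FPKM for the chromosome 4 features before the start limit. From 70 Mb on, 98 of 181 numbers (54.1%) were listed, with 15.1 listed features per megabase. Between 30 and 70 Mb, 222 of 1957 numbers (11.3%) were listed, with 5.56 per megabase. The median feature of the distal end stood at 2.001 FPKM in the wild type against 2.24 FPKM in morphants. For the 222 features between 30 and 70 Mb these medians were 0.593 and 0.585 FPKM. The boundary at 70 Mb was chosen after these values were seen.

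**Figure D2:**
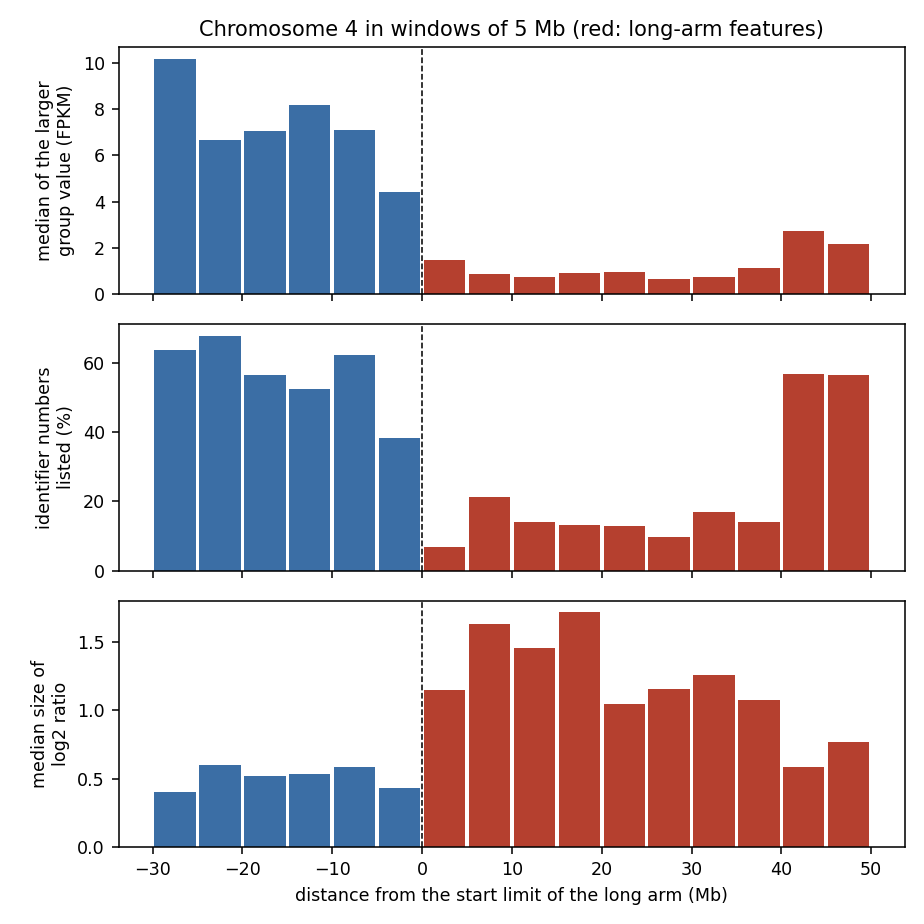
Chromosome 4 in windows of 5 Mb, with distance from the start limit of the long arm on the horizontal axis (Mb) and long-arm windows in red. From top to bottom the bars give the median of the larger group value (FPKM), the share of identifier numbers listed (percent) and the median size of the log2 ratio between groups. The median level drops at the limit and the listed share stays between 6.91% and 21.4% for 8 windows before it returns to 56.8% and 56.4%.

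The most abundant members fell into just a couple of kinds. Of the 15 features at 20 FPKM or more, 7 were loci of 164 bases and the other 8 lay at the distal end beyond 70 Mb. The highest of all, one of 4 features that share the coordinates 76548381 to 76624966, stood at 256 FPKM in the wild type against 214 FPKM in morphants (q = 0.879 in the authors' deposited table). Another feature of the same locus stood at 47.5 and 60.5 FPKM, and the remaining ones at 24.4 and 17.3 FPKM and at 0.762 and 3.36 FPKM. A locus of 12854 bp at 74998756 to 75011610 stood at 26.7 FPKM in the wild type against 39.2 FPKM in morphants, with an unadjusted p of 0.0466 and q = 0.332 in the authors' deposited table. At 73504433 to 73559964, one of the pair of features on that locus stood at 33.95 and 44.3 FPKM (q = 0.654 in the authors' deposited table). These 3 loci held no called feature.

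At a limit of 0.05 on the q-value in the authors' deposited table, 7 of the 320 long-arm features differed between wild-type and morphant hearts. The share of all 16383 listed features called by that rule was 6.23%, and on the long arm it was 2.19%. Below 5 FPKM it was 1.83% on the arm, 2.79% on the rest of chromosome 4 and 4.08% on other chromosomes. At 5 FPKM or more it was 4.26%, 10.5% and 7.66%. Of the 7 calls, 4 were higher in morphants (against 3.33% of all listed features) and 3 were lower (against 2.91%). At an unadjusted p below 0.05 there were 23 long-arm features (7.19%), of which 10 were higher and 13 lower, against 17.8% of all listed features. Of the 7 called features, 4 started at 70 Mb or beyond (4.08% of 98) and 3 before it (1.35% of 222). Among the 90 features that share a locus 0 were called. With 7 calls on the whole arm, that count does not set the shared loci apart.

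The largest called rise was that of XLOC_023684, a 43020-bp locus at 76004945 to 76047965. It rose from 6.18 FPKM (wild type) to 25.9 FPKM (morphants), a 4.20-fold increase (log2 ratio 2.07, q = 0.00173 in the authors' deposited table). XLOC_022130, a 106913-bp locus at 73733121 to 73840034, rose 3.93-fold from 0.517 to 2.03 FPKM (log2 ratio 1.97, q = 0.00994 in the authors' deposited table). The called fall with values above 0 in both groups was that of XLOC_023645, a 99581-bp locus at 72814551 to 72914132. Its value was 14.7 FPKM in the wild type and 1.87-fold lower, 7.86 FPKM, in morphants (log2 ratio -0.90, q = 0.00173 in the authors' deposited table). All 3 loci lie within the distal end and share their coordinates with no other listed feature. Which genes, exons or introns they hold is not recorded there.

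The other 4 calls were features listed at 0 in one group and below 1 FPKM in the other. Loci at 55930461 to 55936210 and at 56775130 to 56779954 were listed at 0 in wild-type and at 0.640 and 0.814 FPKM in morphant hearts. Loci at 40293529 to 40297358 and at 71965090 to 71970920 stood at 0.592 and 0.419 FPKM in wild-type hearts and were listed at 0 in morphants. All 4 carried q = 0.00173 in the authors' deposited table, from the smallest p-value it gives, 5e-05. No fold is given for them, because a listed 0 has no known depth behind it.

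**Figure D3:**
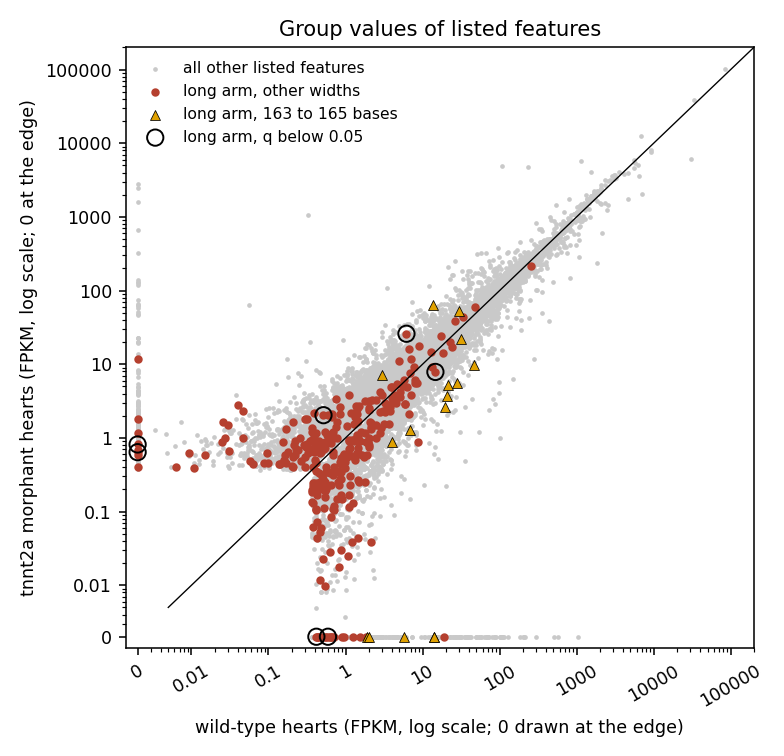
Value of each listed feature in wild-type (horizontal) and tnnt2a morphant hearts (vertical), in FPKM on log axes with 0 drawn at the edge. Grey points are the features outside the long arm, red points and yellow triangles the 320 long-arm features, circles the 7 called ones, and the line marks equal values. Long-arm points crowd the lower left, and most of the triangles (163 to 165 bases) lie below the line.

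A group of very short loci stood out among the members. On the long arm 16 features had loci of 163 to 165 bases, 13 of them exactly 164 bases wide, scattered as separate loci from 30939217 to 70412208. Such a width was found for 17 features of all those listed, so 16 of 17 lay on this arm and the last one on chromosome 8 (4649397 to 4649561). The arm held no other locus under 300 bases, whereas 79 features elsewhere lay on such loci, most often 297 bases wide. The length of a feature inside a wider shared locus is not listed. Those elsewhere had a median larger group value of 71.6 FPKM, against 16.9 FPKM for the 16 on the arm. The class of 163 to 165 bases was noticed in the data and set around 164 bases, the commonest width on the arm. Its concentration on the arm is therefore partly a product of that choice. The table does not say what these loci encode, and reads that fit several of them could have been divided between copies in a way the sources used here do not describe.

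Most of the short loci had lower values in morphant hearts, and the authors' test called none of them. The share called was 6.23% of all listed features and 7.59% of the 79 features on loci under 300 bases elsewhere. With 16 loci, the lack of calls does not set them apart. Their wild-type values ran from 1.93 to 46.6 FPKM with a median of 14.1 FPKM, and their morphant values from 0 to 63.0 FPKM with a median of 3.20 FPKM. Of the 16, 13 were lower in morphants, 5 of these being listed at 0, and 3 were higher. The 2 groups of values overlap. For the 11 above 0 in both groups the median log2 ratio was -2.19. Their p-values in the authors' deposited table ran from 0.0580 to 0.754 and their q-values from 0.365 to 0.929, so none of them passed the authors' test of the difference against the replicate spread.

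Along the arm, the values of individual short loci varied widely. The locus at 30940523 to 30940687 stood at 46.6 FPKM in the wild type against 9.70 FPKM in morphants, and its neighbour 1306 bases away, at 30939217 to 30939381, stood at 6.81 and 1.28 FPKM. A similar pair lay at 46640547 to 46640711, with 19.5 and 2.65 FPKM, and 1310 bases further at 46641857 to 46642021, with 28.1 and 5.62 FPKM. In both pairs each neighbour was lower in morphants, by 4.80-fold to 7.36-fold. Between them in position, the locus at 41443364 to 41443528 stood at 31.1 FPKM in the wild type against 22.1 FPKM in morphants. The loci at 65773805 to 65773969 and at 70412208 to 70412372 stood at 20.5 and 21.4 FPKM in wild-type hearts and at 3.75 and 5.30 FPKM in morphants.

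Some short loci went the other way or were listed at 0. The locus at 67931132 to 67931296 stood at 13.8 FPKM in the wild type against 63.0 FPKM in morphants, which made it the second most abundant feature of the arm (q = 0.692 in the authors' deposited table). The locus at 49174551 to 49174715 stood at 30.04 and 52.2 FPKM, and that at 42100627 to 42100791 at 3.004 and 7.05 FPKM. The loci at 58074748 to 58074912 and at 65292348 to 65292513 stood at 14.3 and 13.9 FPKM in wild-type hearts, and both were listed at 0 in morphants (q = 0.369 for each, per the authors' deposited table). At 42614802 to 42614966 the values were 5.69 FPKM and 0. The chromosome 8 locus of the same width stood at 26.6 FPKM in wild-type hearts and was also listed at 0 in morphants (q = 0.452 in the authors' deposited table).

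A few morphant values of these loci were whole multiples of the smallest one above 0. Beside the smallest value above 0, which was 0.882 FPKM, 4 of the 10 others were whole multiples of it (3, 6, 8 and 11 times) within 0.01 of a whole number. The same value of 0.882 FPKM was listed for one of the features on the shared locus at 44506971 to 45111228. What number of fragments that value stands for is unknown. On a locus of this width, a fragment counts for more FPKM than on a long transcript.

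**Figure D4:**
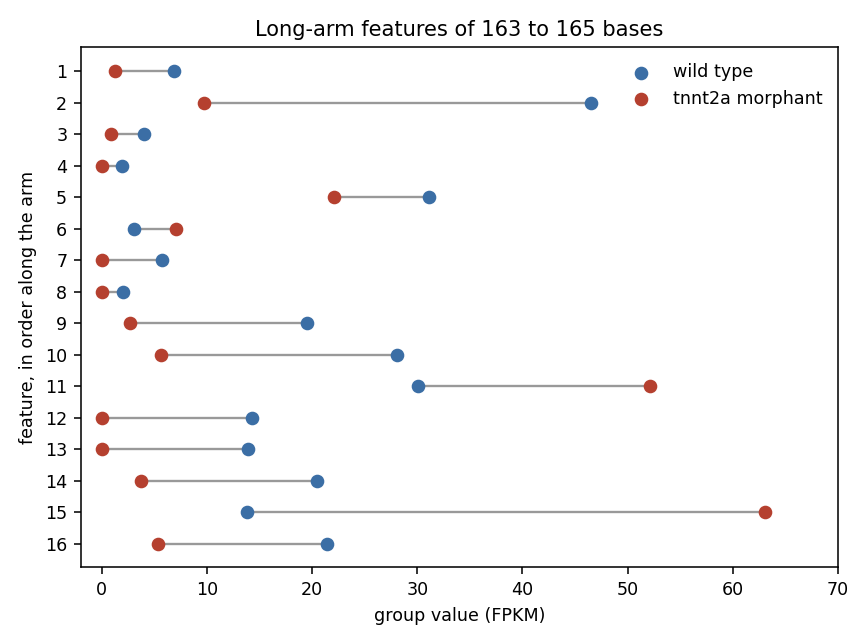
Wild-type (blue) and tnnt2a morphant (red) values in FPKM (horizontal axis) of the 16 long-arm features of 163 to 165 bases, in order along the arm (vertical axis), with a line joining the values of a feature. In 13 of 16 the morphant value is the lower one, and in 5 it is listed at 0.

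Taking all members above 0 in both groups, ratios on the arm leaned towards lower values in morphants. Of 289 such features 128 were higher and 161 lower, so that 44.3% were higher, with a median log2 ratio of -0.36 (quartiles -1.15 and 0.88). On the rest of chromosome 4, 54.5% were higher with a median of 0.17, and on the other chromosomes 53.3% were higher with a median of 0.13. Single chromosomes ranged from a median log2 ratio of -0.13 (chromosome 17, 46.0% higher) to 0.19 (chromosome 9, 56.7% higher). Relative to the median of all listed features, 0.13, the long-arm median was -0.49. It was -0.22 with a pseudocount of 1 FPKM over all 320 members, and -0.23 with a start limit of 25 Mb. Without the short loci it was -0.33, with 125 features higher and 153 lower.

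This lean was not seen in each finer band of level or in each window. Between 0.5 and 1 FPKM the arm had 44 features higher and 44 lower, with a median log2 ratio of 0.10, and between 20 and 100 FPKM it had 7 and 7, with a median of 0.06. In 3 broader ranges the medians lay below 0. Among features of 1 to 5 FPKM the median log2 ratio was -0.36 on the arm and 0.25 on the other chromosomes, and among those of at least 5 FPKM it was -0.31 and 0.10. Below 1 FPKM it was -0.45 on the arm, 0.29 on the other chromosomes and -0.81 on the rest of chromosome 4 (35 features above 0). In that range 46.9%, 52.0% and 34.3% of these features were higher. Features with a p-value above 0.767 are not listed, which thins out ratios near 0. A small change in the share higher can therefore move such a median far from 0. Of the 10 long-arm windows 6 had a median below 0, against 81 of 262 windows elsewhere. The lowest were -0.87 in the windows starting at 40 and at 45 Mb, and the highest was 0.54 in the window starting at 35 Mb. The median was -0.38 between 30 and 70 Mb and -0.30 beyond 70 Mb.

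**Figure D5:**
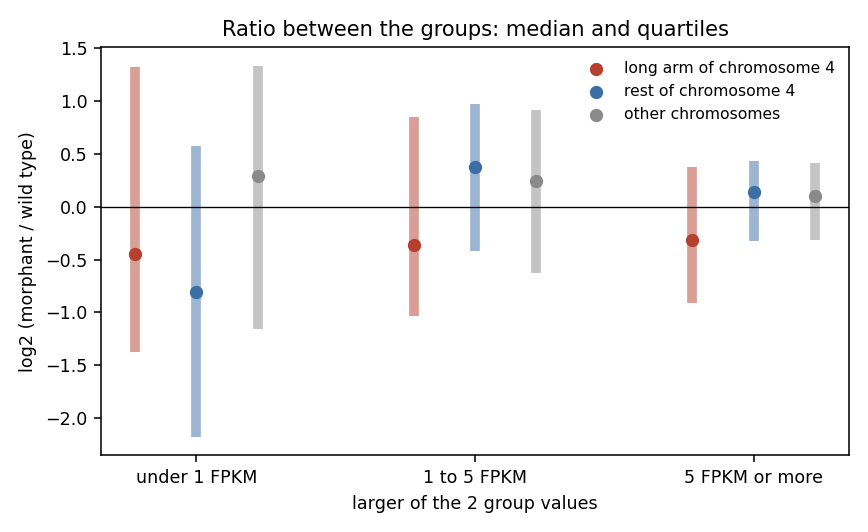
Median (points) and quartiles (bars) of the log2 ratio of morphant over wild-type values (vertical axis) in 3 ranges of the larger group value (horizontal axis), for features above 0 in both groups. The long-arm medians lie below 0 in all 3 ranges, at -0.45, -0.36 and -0.31, while those of other chromosomes lie above 0. Those of the rest of chromosome 4 lie at -0.81, 0.38 and 0.14, so below 1 FPKM its median is lower than that of the arm. Features with a p-value above 0.767 are not listed, which thins out ratios near 0.

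Ratios on the arm were also wide in both directions. The median size of the log2 ratio was 1.06, against 0.49 on the rest of chromosome 4 and 0.49 on other chromosomes, where single chromosomes ranged from 0.43 to 0.55. At least 2-fold differences were seen in 152 of the 289 features (52.6%), 67 higher and 85 lower, against 23.6% on other chromosomes. These sizes and shares hold for listed features only. Those with a p-value above 0.767 are left out, so small differences are under-represented. The sizes were also compared at like levels. Among features of 0.5 to 1 FPKM the median size was 1.35 on the arm and 1.24 on other chromosomes. On the rest of chromosome 4 it was larger than on the arm, at 1.54 (26 features above 0 in both groups). Wide ratios at 0.5 to 1 FPKM were thus not particular to the arm. For the arm, the rest of chromosome 4 and other chromosomes, it was 0.92, 0.73 and 0.78 at 1 to 5 FPKM. In the same order it was 0.61, 0.46 and 0.41 at 5 to 20 FPKM. At 20 to 100 FPKM (14 features on the arm) it was 0.68, 0.32 and 0.31. Of these 14 features, 7 were loci of 164 bases. Over all levels the median size was 2.19 for the short loci and 1.04 for the rest of the arm. Between 30 and 70 Mb the median size was 1.36, and in the more abundant distal end it was 0.62. The part of level in the difference was not tested.

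Among uncalled members at higher levels, the largest ratios came mostly from the short loci. Of the 10 uncalled members with at least 5 FPKM and the largest ratios, 7 were loci of 164 bases and 8 were lower in morphants. The largest ratio was that of a feature on the shared locus at 44506971 to 45111228, which stood at 8.82 FPKM in the wild type against 0.882 FPKM in morphants (10.01-fold, q = 0.802 in the authors' deposited table). The locus at 71997646 to 72008540 stood at 6.57 and 2.10 FPKM (q = 0.447 in the authors' deposited table). A feature on the locus at 75032056 to 75142798 stood at 6.64 and 16.03 FPKM, with an unadjusted p of 0.0186 and q = 0.198 in the authors' deposited table.

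Values of 0 were listed for 31 long-arm features (9.69%), 23 in morphants and 8 in wild type. The share was 5.52% on the rest of chromosome 4 and 5.07% on the other chromosomes, where single chromosomes ranged from 3.05% to 6.92%. Zeros were more often in morphants in all 3 sets, with 17 in morphants and 7 in wild type on the rest of chromosome 4 and 516 and 276 on other chromosomes. Compared at like levels, however, the arm did not hold more of them at the low end: between 0.5 and 1 FPKM 12.9% of its features were listed at 0 in one group, against 23.6% on other chromosomes, and between 1 and 5 FPKM 5.56% against 6.02%. Between 5 and 20 FPKM there were 5 of 32 (15.6%) against 0.522%, and 3 of these 5 were short loci. The other 2 were a 5625-bp locus at 51021303 to 51026928, which stood at 18.7 FPKM in wild-type hearts and 0 in morphants (q = 0.494), and a feature of the shared locus at 69106826 to 69507590, which stood at 0 and 11.7 FPKM (q = 0.555, each from the authors' deposited table). The features next in level among those listed at 0 in wild type, at 60104620 to 60119868 and on the shared locus at 67023062 to 67395423, stood at 1.78 and 1.16 FPKM in morphants. Zeros at short loci were not particular to the arm: 5 of its 16 were listed at 0, against 30 of 79 (38.0%) on loci under 300 bases elsewhere. Of the 31 long-arm features listed at 0, 27 started before 70 Mb, and 4 were called (12.9%, against 24.3% of all 847 features listed at 0 in one group).

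Many long-arm features shared their coordinates with others, as happens where assembled transcripts overlap or are bundled into one locus. This held for 90 of 320 features (28.1%) on 34 loci, against 23.0% on the rest of chromosome 4 and 13.97% on other chromosomes, with 20.5% on chromosome 22 as the highest single value. No long-arm locus held more than 4 features, whereas the fullest locus elsewhere held 35. There were 8 loci of 4 features, 6 of 3 and 20 of 2, and 22 of the 34 held identifiers from both series. Members on shared loci had a median locus width of 153356 bp, against 11388 bp for the other 230, and nearly the same level, with medians of 1.15 and 1.11 FPKM for the larger group value.

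Features of the same locus did not as a rule lean the same way. Of 30 shared loci with at least 2 features above 0 in both groups, 10 had all ratios in one direction and 20 had both directions. At 48337864 to 48753889 all 4 features were lower in morphants, by 2.85-fold to 5.55-fold, with wild-type values from 0.416 to 1.47 FPKM. At 44506971 to 45111228 all 4 were lower as well, by 1.23-fold to 10.01-fold. At 39778362 to 40139189, by contrast, 3 were higher and 1 was lower, with every value between 0.0248 and 2.14 FPKM. None of these features was called, and the smallest q-value among the 12 was 0.463 in the authors' deposited table.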

How the data were processed

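Per the labels' protocols, total RNA of pooled hearts was made into strand-specific libraries. Cuffdiff, Cufflinks 2.2.1, STAR 2.5.0c, cutadapt 1.9.1, Trim Galore 0.4.1, FastQC 0.11.4 and bcl2fastq are named in the submitters' processing notes, with build GRCz10; annotation, handling of multiply mapped reads and library normalisation were not given in the sources used here. For each feature the authors deposited 1 FPKM value per group, a p-value and a q-value, the latter their Cuffdiff test across all features. Log2 ratios were recomputed from the FPKM values of features above 0 in both groups, because the deposited fold column holds error cells. Locus width is end minus start, as listed. Calls are q-values below 0.05. Members and sets were chosen with earlier results of these data known. The named-feature rule took all calls, the 10 most abundant members, the 10 uncalled members of at least 5 FPKM with the largest ratios, up to 5 listed at 0 per group, and the most shared loci (8 tied at 4 features); the 163 to 165 base class, the boundary at 70 Mb and the identifier series were added after values were seen. The summaries were tested on simulated data. The alternatives run were other start limits, FPKM minimums, locus rules, a pseudocount, recentring and other call limits. Sequences are not used here. Python 3.11.15, numpy 2.4.6, pandas 2.3.3, scipy 1.17.1 and matplotlib 3.10.9 were used.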

Additional observations from a re-analysis of the deposited data

How the results depend on the processing

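Under 16 settings 91 values were recomputed. Of these, 71 stayed within the 95% binomial interval of the reported value or within 1.5 times its count, and 20 did not. A direction applies only to the median log2 ratio and the share higher, and 0 of these changed it. The interval treats features as independent, although 90 members share a locus. Starts of 25 or 35 Mb, leaving out shared loci or (added after the data were seen) the short loci kept every value within these bounds. Dropping the upper FPKM limit, which removed 0 features, gave the same set. Its values could not differ, and they are counted among the 71. A minimum of 1 FPKM left 173 features with a median level of 2.42 FPKM and 2 calls higher and 1 lower. A minimum of 5 FPKM left 47 features with a median of 13.9 FPKM and 1 call in each direction. Counting each locus once put 12.9% of loci, not features, on shared coordinates. An unadjusted p below 0.05 gave 10 higher and 13 lower, and without features listed at 0 there were 2 and 1. By segment, a split added after the data were seen, the median level was 0.882 FPKM with 2 calls higher and 1 lower before 70 Mb. Beyond 70 Mb it was 2.72 FPKM over 98 features, with 4.08% listed at 0 and 2 calls higher and 2 lower. No paired analysis was possible because only merged group values exist, and leaving out each replicate was not run for the same reason. Depth is unknown, so no detection limit was set.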

Other observations

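Windows elsewhere in the genome came near the long arm in single measures. The first 5 Mb of chromosome 3 had a median larger value of 2.22 FPKM over 39 features, with 20.5% listed at 0 in one group and a median log2 ratio of 0.50. The window from 5 to 10 Mb of chromosome 22 had a median of 3.75 FPKM over 76 features and a median log2 ratio size of 0.84. The window from 45 to 50 Mb of chromosome 23 had the widest ratios outside the arm, with a median size of 0.91 over 26 features. For comparison, 8 of the 10 long-arm windows lay above that value, from 1.05 to 1.71.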
